A study of Homo sapiens with 16 samples.

Results

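ACER2, TIGAR, TP53I3, FDXR, SCO2 and GLS2 are 6 genes of lipid, sugar, redox and mitochondrial metabolism that the tumour suppressor p53 is known to switch on. They were taken by gene symbol. Of the 6, 4 genes with 5 array features were measured, among 18334 named genes with 31332 features. ACER2, TP53I3 and SCO2 had 1 feature each and TIGAR had 2, while FDXR and GLS2 were not analysed here.

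The cells were A549, an established human lung adenocarcinoma line. In the 4 groups, cells were sampled 1h or 4h after carbon ions (C12) or 1h or 4h after X-rays, with 4 arrays per group. Per the labels, each of the 16 arrays compared an irradiated plate with its own control of the same time point, with the dyes Cy3 and Cy5. The labels also state that RNA of 2 experiments was pooled before labelling, so an array is not 1 culture dish. Below, n counts arrays. Errors and p-values treat them as independent, and how many separate pools they came from was not checked. X-rays came from a 6 MV clinical accelerator at 3 Gy per minute, and carbon ions from a 10 mm spread-out Bragg peak at 120.45 to 135.16 MeV per nucleon. Doses are not stated here for either quality, and C12 and X-ray values stand side by side for these exposures, not at a known equal dose.

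Each value is a log2 ratio of the irradiated over the control plate, and that direction is likely, not settled. Base 2 is assumed from limma's convention, and fold changes rest on it and on any scaling of the arrays before deposit. Among C12 arrays whose labels give 1 dye to the irradiated plate, deposited ratios correlated over all features with r from -0.869 to 0.853, so the dye labels alone did not set the sign. Ratios of replicates 1 and 2 of each group were multiplied by -1, a rule found in these values, whose overall sign was set by p53 targets after X-rays. A rise of the members after X-rays, or agreement of their arrays, is therefore no independent support for the rule or the direction. With the opposite sign, every rise below is a fall of the same size. Were the first pair of replicates to differ from the second for any other reason, that difference could not be told apart from an irradiation effect. Ratios hold no level, so the line could not be checked by marker levels, and levels of different genes cannot be compared. Of 19 measured markers of fibroblasts, endothelium and blood cells, 0 passed in any comparison, with medians between -0.06 and 0.06. RNA came from whole plates, so a change in all cells and a larger one in some of them cannot be told apart.

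As background, p53 is a transcription factor that is stabilised after DNA damage and raises genes of cell cycle arrest and death, but also genes that reset metabolism. ACER2 encodes a Golgi ceramidase, which splits ceramide into sphingosine and a fatty acid. TIGAR encodes a phosphatase of fructose-2,6-bisphosphate that slows glycolysis and feeds the pentose phosphate pathway, the main source of NADPH. TP53I3, also known as PIG3, encodes a quinone oxidoreductase linked to reactive oxygen species. SCO2 encodes a copper chaperone needed to assemble cytochrome c oxidase, the last complex of the respiratory chain. FDXR encodes the reductase that passes electrons to mitochondrial ferredoxins, and GLS2 a mitochondrial glutaminase.

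The promoters of the members that changed together 4h after X-rays are shown because p53 acts on DNA near its targets. RefSeq (GRCh38.p14) gave a window for 3 of the 4 measured members, from 250 bases before to 50 bases after the start of the gene, and capitals mark matches to the p53 decamer, the 10-base consensus, with at most 1 mismatch.
ACER2, chr9:19408759-19409058, plus strand: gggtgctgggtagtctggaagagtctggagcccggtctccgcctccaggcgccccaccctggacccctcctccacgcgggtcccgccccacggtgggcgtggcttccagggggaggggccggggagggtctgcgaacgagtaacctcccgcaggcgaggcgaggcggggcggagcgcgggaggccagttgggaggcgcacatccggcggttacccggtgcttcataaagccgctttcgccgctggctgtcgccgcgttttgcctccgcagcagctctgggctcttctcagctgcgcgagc
TIGAR, chr12:4320963-4321262, plus strand: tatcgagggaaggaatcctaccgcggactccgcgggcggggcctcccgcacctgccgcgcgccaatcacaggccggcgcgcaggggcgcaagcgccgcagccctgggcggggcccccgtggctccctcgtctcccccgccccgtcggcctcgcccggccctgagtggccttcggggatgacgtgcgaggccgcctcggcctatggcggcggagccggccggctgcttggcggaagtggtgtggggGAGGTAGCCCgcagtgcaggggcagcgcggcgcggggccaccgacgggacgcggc
TP53I3, chr2:24084785-24085084, minus strand: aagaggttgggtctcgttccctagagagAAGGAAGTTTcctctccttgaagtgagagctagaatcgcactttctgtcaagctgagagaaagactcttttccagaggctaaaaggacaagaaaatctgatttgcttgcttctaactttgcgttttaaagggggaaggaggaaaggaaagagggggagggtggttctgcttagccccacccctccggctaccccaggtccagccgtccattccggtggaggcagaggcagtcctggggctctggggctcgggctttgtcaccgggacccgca

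In these windows 0 matches to the decamer without a mismatch were found, against 6.63% of 35116 promoter windows of the same length that hold one. TIGAR and TP53I3 had 1 match each with 1 mismatch, which 63.7% of all windows have, and ACER2 had 0. In both matches the mismatch was a G where the consensus requires a C. Relative to the start of the gene, the TIGAR match begins at -5 and the TP53I3 match at -222. A pair of such matches with a spacer of up to 13 bases, present in 5.25% of all windows, was found in none of the 3. The consensus reads the same on both strands, so 1 search covered both. GGGCGG, searched on both strands and present in 45% of windows, occurred 2 times in ACER2 and 3 times in TIGAR but not in TP53I3. These windows differed in base composition, with a GC content of 71.7% for ACER2, 78.0% for TIGAR and 54.3% for TP53I3. Other p53 sites may lie outside such a window.

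At 4h after X-rays, 3 of the 4 measured members rose and 0 fell, against 0.524% of all genes that rose and 0.0436% that fell (limma adjusted p under 0.05 over 18334 genes). The rule for turning replicates was found in these values, and p53 targets set its sign. Counts, agreement between arrays and p-values for these members are therefore described. They are not read as independent support for a rise, its direction or a difference between groups. With the ratios as deposited or turned by the labelled dye, 0 members and 0 genes passed in this group. ACER2 rose 2.65-fold, TIGAR 1.89-fold and TP53I3 1.73-fold, while SCO2 did not pass. The median of the 4 members was 0.86 on the log2 scale, against 0.00 for all genes. All 3 that rose were positive on 4 of 4 arrays, as were 5.14% of all genes. In no other comparison did a member pass. Of all genes, 0.0436% rose and 0.00545% fell at 1h after X-rays, 0.0109% rose and 0% fell at 4h after C12, and 0% passed at 1h after C12 or in any difference between groups.

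**Figure D1:**
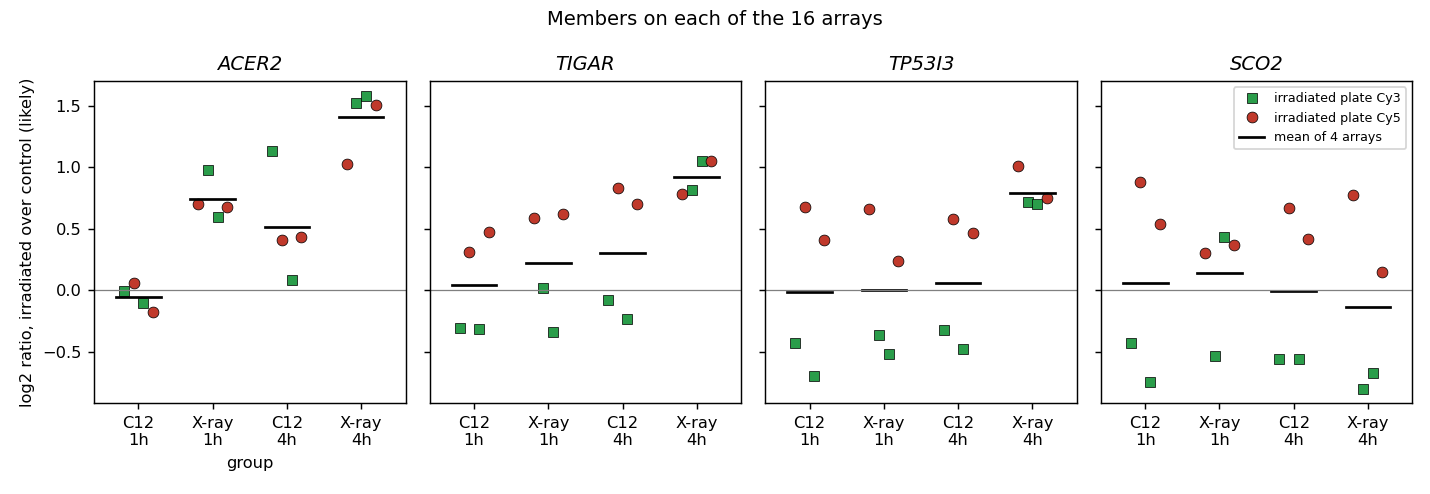
Log2 ratio (likely irradiated over control) of each member on each of the 16 arrays, by group on the horizontal axis. Squares are arrays with the irradiated plate in Cy3, circles those with it in Cy5, and bars are means of 4 arrays. ACER2, TIGAR and TP53I3 lie above 0 on all 4 X-ray 4h arrays, and SCO2 parts by dye there.

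ACER2, the ceramidase gene, stood at 1.03, 1.52, 1.58 and 1.51 on replicates 1 to 4 at 4h after X-rays. All 4 values were far above 0, with replicate 1 the lowest. The change was 1.41 ± 0.14 (SE, n = 4), with a limma adjusted p of 8.19e-05. The call was lost with array weights (1.36 ± 0.29, adjusted p = 0.152). ACER2 had the smallest p-value of all 18334 genes in this group, and its rise was number 4 in size.

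At 1h after X-rays, ACER2 was already positive on 4 of 4 arrays, at 0.70, 0.98, 0.60 and 0.68, as were 3.58% of all genes. The estimate of 0.74 ± 0.14 (SE, n = 4) did not pass over all genes (limma adjusted p = 0.089). It passed with 1 dye coefficient per radiation quality (adjusted p = 0.039), without C12 4h replicate 1 (0.0256) and without C12 4h replicate 3 (0.0336). Both of these arrays share in the estimate of the spread but not in the X-ray mean. Over the 16 fits that each left out 1 array, the adjusted p of ACER2 ran from 0.0256 to 0.990. With each feature tested on its own it was 0.118.

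After C12, ACER2 was near 0 at 1h, with -0.01, 0.06, -0.10 and -0.18 on the 4 arrays and an estimate of -0.06 ± 0.14 (SE, n = 4). At 4h it stood at 1.13, 0.41, 0.08 and 0.43, positive on 4 of 4 arrays, against 0.518% of all genes. These values were widely spread, replicate 1 being the highest and replicate 3 close to 0. Of all genes, 0.567% were negative on 4 of 4 of these arrays. The C12 dye coefficient averaged 0.323 in absolute size over all genes and was -0.05 for ACER2. Neither share is thus that of genes with as small a dye term. The estimate of 0.51 ± 0.14 (SE, n = 4) ranked number 9 of all genes by p-value and did not pass (limma unadjusted p = 0.00183, adjusted p = 1). The plain SD of the 4 values was 0.44. A limma fit to these 4 arrays alone gave a standard error of 0.11 and an adjusted p of 0.0636. A fit to the 8 C12 arrays gave 0.12 and 0.458. Limma draws the spread of each gene towards that of other genes, so the 0.11 is not the error of these 4 values by themselves. Without replicate 1, the estimate was 0.31.

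The order of the ACER2 changes was thus X-ray 4h, X-ray 1h, C12 4h and C12 1h. X-ray 1h and C12 4h are neighbours whose arrays overlapped. Values at 1h did not overlap between the qualities, with all C12 arrays at or below 0.06 and all X-ray arrays at or above 0.60.

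TIGAR, the phosphatase gene, stood at 0.78, 0.81, 1.05 and 1.05 on replicates 1 to 4 at 4h after X-rays. These values were close together and all above 0. The change was 0.92 ± 0.13 (SE, n = 4), with a limma adjusted p of 0.00184. Its 2 features gave 0.86 ± 0.15 and 0.98 ± 0.17 when tested singly, and both passed over all 31332 features (limma adjusted p = 0.00838 and 0.00841). Without replicate 3, TIGAR stood at 0.77 and missed the threshold (adjusted p = 0.0519), and it also missed it without the dye term (0.0988) and with array weights (0.196).

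At 1h after X-rays, TIGAR had values of 0.58, 0.02, -0.34 and 0.62, on both sides of 0. The estimate was 0.22 ± 0.13 (SE, n = 4) and did not pass (limma adjusted p = 1.00). Tested singly, the 2 features of TIGAR gave 0.34 ± 0.15 and 0.105 ± 0.17, and neither passed. On replicate 2 they stood at 0.57 and -0.53. At 4h after C12, its values were -0.08, 0.83, -0.23 and 0.70, and the estimate of 0.30 ± 0.13 did not pass either (unadjusted p = 0.0343, adjusted p = 1). At 1h after C12, the values were -0.31, 0.31, -0.31 and 0.47, with an estimate of 0.04 ± 0.13.

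The C12 values of TIGAR were positive where the irradiated plate carried Cy5 (replicates 2 and 4) and negative where it carried Cy3 (replicates 1 and 3). With the dye coefficient of the C12 arrays taken out, they were 0.33, 0.42, 0.17 and 0.29 at 4h and 0.10, -0.09, 0.09 and 0.07 at 1h. On this scale the 4h arrays lay above the 1h arrays, as did those of 0.796% of all genes, whereas with the dye left in they overlapped. The features differed in size at C12 4h, with means of 0.17 and 0.44, and over the 16 arrays they correlated with r = 0.673, a description of values that share the dye.

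TP53I3, the quinone oxidoreductase gene, stood at 1.01, 0.72, 0.70 and 0.75 at 4h after X-rays. Replicate 1 was the highest, and all 4 arrays were above 0 whichever dye the irradiated plate carried. The change was 0.79 ± 0.14 (SE, n = 4), with a limma adjusted p of 0.00792. This call was lost without replicate 3 (0.69, adjusted p = 0.132), without the dye term (0.463), in the fit on the 8 X-ray arrays (0.0664) and with array weights (0.226).

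In the other 3 groups TP53I3 had a mean close to 0. At 1h after X-rays its values were 0.66, -0.36, -0.52 and 0.23 (0.00 ± 0.14, SE, n = 4). At 1h after C12 they were -0.43, 0.67, -0.70 and 0.41 (-0.01 ± 0.14). At 4h after C12 they were -0.33, 0.58, -0.48 and 0.47 (0.06 ± 0.14). In each of these 3 groups both Cy5 arrays were above 0 and both Cy3 arrays below it.

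SCO2, the copper chaperone gene, did not pass in any group. At 4h after X-rays its values were 0.78, -0.80, -0.68 and 0.14, with an estimate of -0.14 ± 0.16 (SE, n = 4, limma adjusted p = 0.982). The 95% interval ran from -0.48 to 0.21, which does not reach the changes of ACER2, TIGAR or TP53I3 in this group. This interval rests on a spread shared with the C12 arrays, where the residual SD of SCO2 was 0.19 against 0.40 on X-ray arrays. At 1h after X-rays the values were 0.30, -0.54, 0.43 and 0.37, with an estimate of 0.14 ± 0.16 (adjusted p = 1.00). After C12 they were -0.43, 0.88, -0.74 and 0.54 at 1h, and -0.56, 0.67, -0.56 and 0.41 at 4h, with estimates of 0.06 ± 0.16 and -0.01 ± 0.16.

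**Figure D2:**
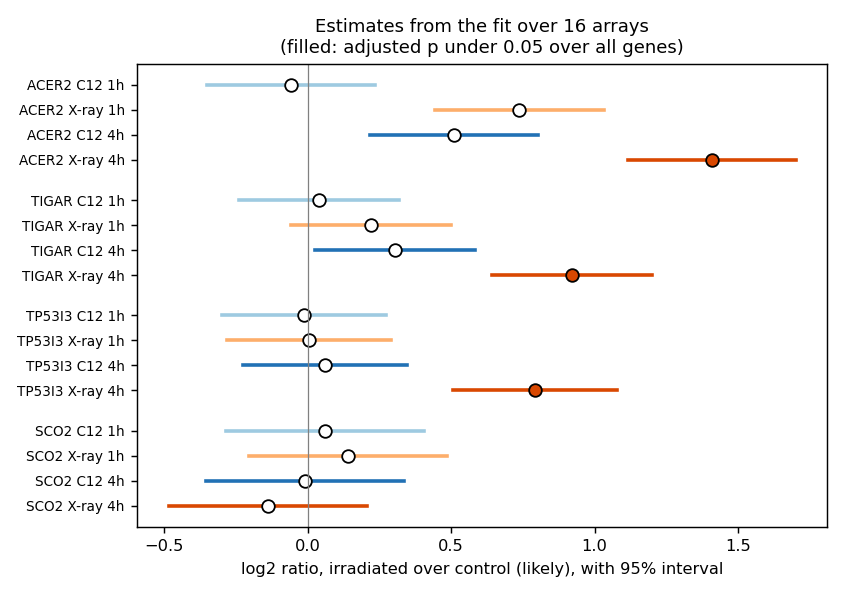
Estimated log2 ratio (likely irradiated over control) of each member in each group, with 95% intervals from the fit over 16 arrays. Filled points passed an adjusted p of 0.05 over all genes. Only ACER2, TIGAR and TP53I3 at X-ray 4h are filled, at 1.41, 0.92 and 0.79.

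The dye of the irradiated plate moved with the values of 3 members. The mean of the Cy5 arrays minus that of the Cy3 arrays was 1.30 for SCO2, 1.10 for TP53I3 and 0.70 for TIGAR at 1h after C12, and -0.01 for ACER2. The mean of 13 housekeeping genes differed by 0.87 between the same arrays. At 4h after X-rays the difference was 0.17 for TP53I3 and -0.02 for TIGAR, but 1.20 for SCO2, and 0.20 for the housekeeping genes. Housekeeping means there were 0.15, 0.26, -0.45 and 0.06 on replicates 1 to 4. Replicate 2, whose irradiated plate carried Cy3, thus did not follow the pattern of the other groups. Replicates 1 and 4, with Cy5, were also lower than the Cy5 arrays of the other groups (0.381 to 0.591), and the housekeeping median of replicate 4 was -0.12. The part of these arrays in the members' X-ray 4h values was not tested. Without replicate 2 the same 3 members passed and 1322 genes did in all, against 104 with it.

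**Figure D3:**
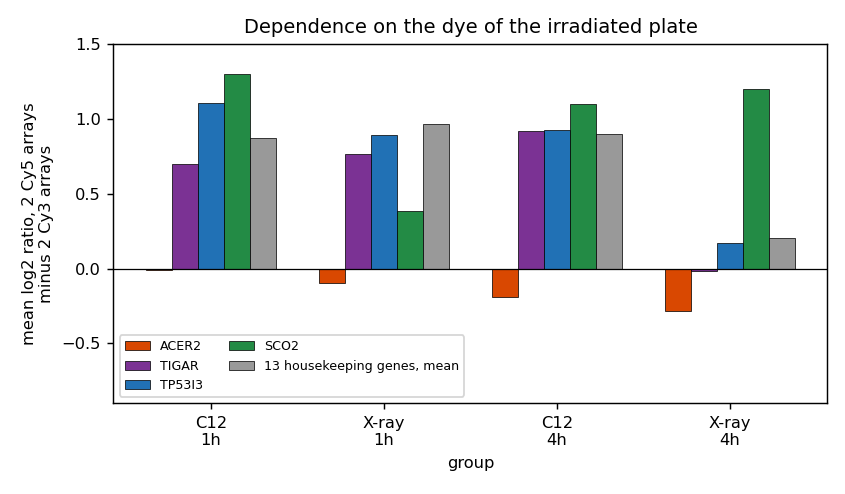
Mean log2 ratio of the 2 arrays per group with the irradiated plate in Cy5 minus that of the 2 arrays with it in Cy3, by group, as bars. SCO2 is at 1.20 at X-ray 4h, where TIGAR (-0.02) and TP53I3 (0.17) are close to 0; grey bars are the mean of 13 housekeeping genes.

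The difference between the radiation qualities was tested directly. Limma and exact permutation tests here and in the comparisons of times used the turned ratios. Their p-values are descriptions too, since the rule for turning was found in these values. At 4h, the estimates for C12 minus X-ray were -0.90 ± 0.20 for ACER2, -0.62 ± 0.19 for TIGAR and -0.73 ± 0.19 for TP53I3 (log2, SE, n = 4 per group). None passed over all genes in limma (adjusted p = 0.597, 1.00 and 1.00), where 0 genes passed and 329 had an unadjusted p under 0.05. For TP53I3 the C12 arrays (-0.48 to 0.58) lay below the X-ray arrays (0.70 to 1.01), as in 0.785% of all genes, with an exact permutation p of 0.0286 (two-sided, the smallest that 4 against 4 arrays allow). The ACER2 groups overlapped by 1 C12 array (exact permutation p = 0.0571), as did those of TIGAR (0.0857). With the dye coefficient of each quality taken out, the C12 4h arrays lay below the X-ray 4h arrays for ACER2 (highest C12 array 1.08, lowest X-ray array 1.12), TIGAR (0.42 and 0.59) and TP53I3 (0.18 and 0.48), as in 2.89% of all genes. SCO2 differed by 0.13 ± 0.23 for C12 minus X-ray, with a 95% interval from -0.36 to 0.62.

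At 1h only ACER2 had groups without overlap, lower after C12, as were 0.447% of all genes. Its difference for C12 minus X-ray was -0.80 ± 0.20 (SE, n = 4 per group), with an exact permutation p of 0.0286, and it did not pass in limma over all genes (adjusted p = 1). The other 3 members differed by -0.18 for TIGAR, -0.02 for TP53I3 and -0.08 for SCO2. Their groups overlapped, and the SE was between 0.19 and 0.23.

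**Figure D4:**
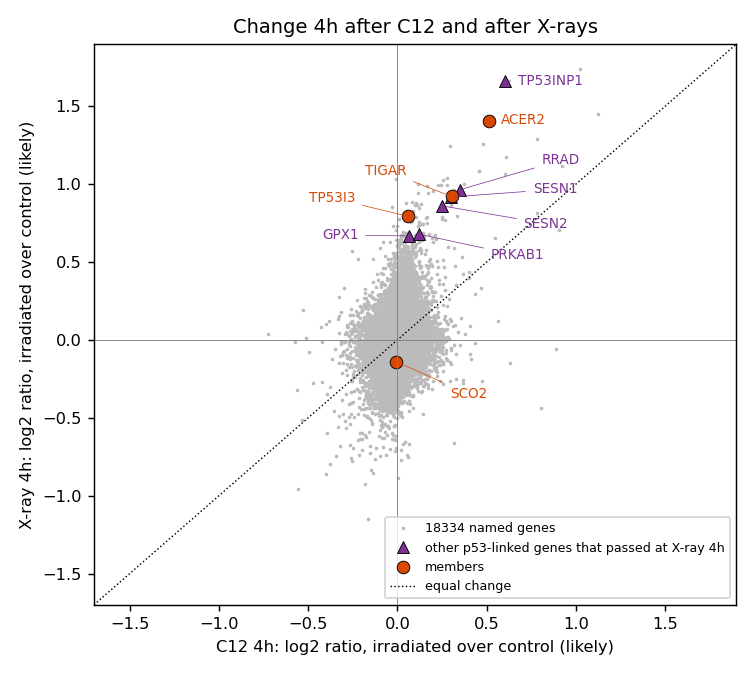
Estimated log2 ratio 4h after C12 (horizontal) against 4h after X-rays (vertical) for 18334 named genes in grey, the 4 members as circles and 6 other p53-linked metabolic genes that passed after X-rays as triangles. The dotted line marks equal change; ACER2 lies at 0.51 and 1.41, TP53I3 at 0.06 and 0.79, and SCO2 near the origin.

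Between 1h and 4h after X-rays, ACER2, TIGAR and TP53I3 had higher values at 4h without overlap of the arrays, as did 0.693% of all genes. The estimates for 4h minus 1h were 0.67 ± 0.20 for ACER2, 0.70 ± 0.19 for TIGAR and 0.79 ± 0.19 for TP53I3 (SE, n = 4 per group), each with an exact permutation p of 0.0286. In limma 0 of 18334 genes passed this comparison (645 at an unadjusted p under 0.05), and the members' adjusted p lay between 0.775 and 1.00. SCO2 stood at -0.28 ± 0.23, with overlapping arrays. With the dye left in, ACER2 was the 1 member whose C12 4h arrays lay above all its 1h arrays, at 0.57 ± 0.20 for 4h minus 1h (exact permutation p = 0.0286, limma adjusted p = 1), as did 0.0327% of all genes. With the dye taken out, its groups overlapped (lowest 4h array 0.03, highest 1h array 0.11) and those of TIGAR did not. For TIGAR the estimate was 0.26 ± 0.19, for TP53I3 0.07 ± 0.19 and for SCO2 -0.07 ± 0.23, all with overlapping arrays while the dye was left in.

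The members were next set beside other metabolic and redox genes that p53 is known to raise. Of 23 measured, 6 rose 4h after X-rays, 0 fell and 17 did not pass, with a median of 0.25 against 0.00 over all genes. TP53INP1, a stress gene with antioxidant and autophagy roles, rose by 1.66 ± 0.20 (SE, n = 4). RRAD, a small GTPase that curbs glucose uptake, rose by 0.96 ± 0.15, and the sestrin genes SESN1 and SESN2, whose proteins act on peroxide defence and mTORC1, by 0.92 ± 0.14 and 0.86 ± 0.12. PRKAB1, a subunit of the energy sensor AMPK, rose by 0.68 ± 0.13 and GPX1, the glutathione peroxidase gene, by 0.67 ± 0.14. Their limma adjusted p lay between 0.000504 and 0.0324. This list, too, was chosen with earlier results known and shares its p53 link with the genes that set the sign. At 1h after X-rays 1 of the 23 passed, SESN2 at 0.85 ± 0.12 (adjusted p = 0.0064), and after C12 0 passed at either time, with medians of 0.03 at 4h and 0.04 at 1h.

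Without X-ray 4h replicate 3 only 1 of the 6 passed, and without the dye term 3 did. Of 9 measured metabolic genes that p53 is known to lower, 0 passed in this group and the median was 0.01. The smallest p-values among these belonged to SLC2A1, the glucose transporter gene (0.46 ± 0.18, adjusted p = 0.572), and PDK2 (0.16 ± 0.13).

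Pathway partners of the members mostly did not pass. They were listed by pathway, and links of these genes to p53 were not checked. In 6 lists of genes around the members, with 152 genes measured, 2 rose 4h after X-rays and 0 fell, and the medians of the lists lay between -0.04 and 0.07. Among 30 genes of ceramide and sphingosine metabolism, 1 rose, S1PR4, a receptor for sphingosine-1-phosphate, at 0.72, 0.51, 0.86 and 0.58 on the 4 arrays (0.67 ± 0.12, limma adjusted p = 0.013). S1PR5, the next by p-value, stood at -0.19 ± 0.11. Among 19 ferredoxin, iron-sulfur and mitochondrial P450 genes, 1 rose, ISCU, the scaffold of iron-sulfur cluster assembly, at 0.84, 0.80, 0.75 and 0.61 (0.75 ± 0.16, adjusted p = 0.0417). The call of ISCU was lost when any of several single arrays was left out, among them replicate 3 (0.60, adjusted p = 0.402), and that of S1PR4 without replicate 1 (0.0583) or 3 (0.193).

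In the other 4 lists 0 genes passed at 4h after X-rays, where 50.3% of all genes had estimates above 0. Of 30 glycolysis and pentose phosphate genes, 22 had positive estimates, none beyond 0.28, and the smallest p-values were those of ALDOC (-0.19 ± 0.11) and PFKFB4, which makes and breaks down the substrate of TIGAR (0.23 ± 0.13). Of 24 quinone and NADPH oxidoreductases, 12 were positive, and VAT1L (-0.34 ± 0.14) and CBR3 (-0.27 ± 0.13) had the smallest p-values. Of 30 cytochrome c oxidase genes, 16 were positive, and COA7 (-0.38 ± 0.19) and CMC2 (-0.43 ± 0.22) had the smallest. Of 19 glutamine and glutathione genes, 11 were positive, with OPLAH, the oxoprolinase of glutathione turnover, at 0.60 ± 0.17 (adjusted p = 0.173) and GSS at 0.29 ± 0.12.

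**Figure D5:**
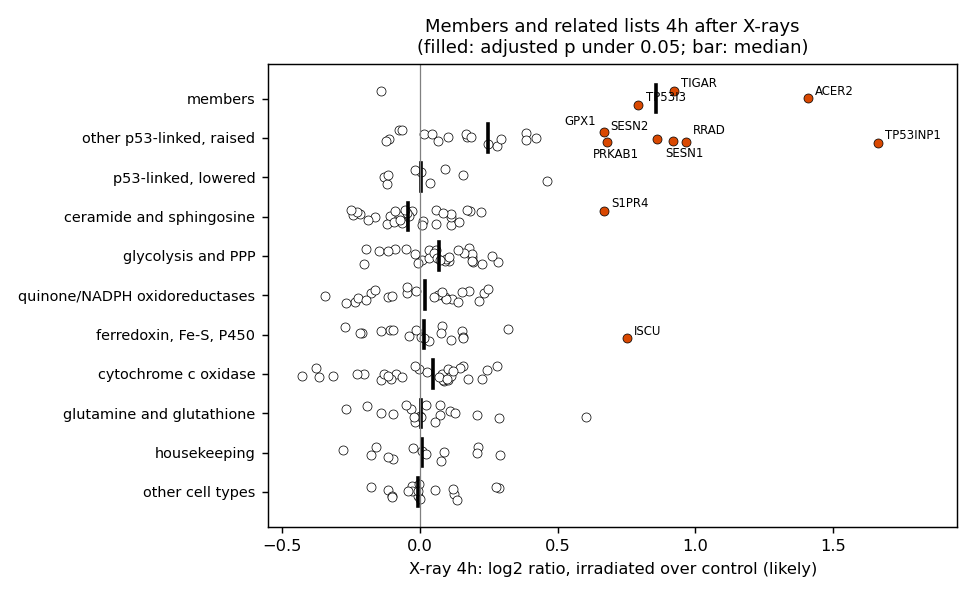
Estimated log2 ratio 4h after X-rays (likely irradiated over control) for the 4 members and each measured gene of 10 related or control lists, 1 row per list. Filled points passed an adjusted p of 0.05 over all genes and bars are list medians. Outside the members, filled points are 6 genes of the list of other p53-linked genes, S1PR4 and ISCU.

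Likeness to the members was measured as Pearson's r over the 16 arrays after the dye term was taken out, as a description of arrays that share groups and dye. ACER2 was most like TP53INP1 (r = 0.906), FAS (0.874) and GRHL3 (0.870). TIGAR was most like ANKRA2 (0.951), GLB1L (0.931) and NUPR1 (0.914). TP53I3 was most like PLAT (0.964), TINCR (0.958) and ISCU (0.956). SCO2 was most like TARBP2 (0.970), MYBL2 (0.958) and ABHD17A (0.955), 3 genes whose X-ray 4h estimates lay between -0.20 and -0.05. Among the members, TIGAR and TP53I3 were the most alike (r = 0.880, number 15 of 18333 genes for TIGAR). ACER2 correlated with TIGAR at 0.809 and with TP53I3 at 0.721, while SCO2 had values from -0.462 to -0.243 with the other 3. The signs for SCO2 depended on the dye term, since with the dye left in r was 0.321 with TIGAR, 0.499 with TP53I3 and -0.262 with ACER2.

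Genes next to the members on the chromosome were taken as a local comparison, a choice made after the members' values were seen. The nearest measured neighbours were RPS6 and SLC24A2 for ACER2, CCND2 and FGF23 for TIGAR, SF3B6 and PFN4 for TP53I3, and NCAPH2 and TYMP for SCO2. None of these passed at 4h after X-rays, where their estimates ran from -0.29 for SF3B6 to 0.27 for PFN4. NCAPH2 and TYMP overlap SCO2 in the RefSeq annotation, and whether the SCO2 feature also reads their transcripts is not given in the sources used here.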

How the data were processed

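Per the labels, RNA of irradiated and control plates was labelled with Cy3 and Cy5 in a balanced dye swap. The authors deposited log2 ratios of both dyes, 1 per feature and array (45220 features, 16 arrays, 0 missing). The submitters' processing notes name limma, and the background correction, normalization and log base used are not stated in them. The log base is assumed from limma's convention. The SD over features was 0.4142 to 0.4143 on each array, which fits a common scale set before deposit. Such a step would set the size of the ratios array by array, so sizes compared between the qualities would rest on it. The mean absolute dye coefficient was 0.323 on C12 and 0.134 on X-ray arrays, so the dye's part in that spread was unequal. How far this moved the sizes was not tested. Signals were not used, and precision rests on how many arrays there are.

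A single symbol was given for 31332 features, several for 93 (left out), and 13795 were unnamed here. Ratios of replicates 1 and 2 were turned, and features averaged per symbol. With limma 3.58.1 (statmod 1.5.0, R 4.3.3), 4 group means and 1 dye coefficient were fitted to 16 arrays (11 residual degrees of freedom), with Benjamini-Hochberg adjustment over 18334 genes at 0.05, and tested on simulated data. Residual SD averaged 0.205 on C12 and 0.339 on X-ray arrays, so on average a shared spread widens C12 errors and narrows X-ray errors. The same held for TIGAR (0.15 and 0.27), TP53I3 (0.18 and 0.27) and SCO2 (0.19 and 0.40), whose X-ray errors are thus narrowed. ACER2 went the other way (0.293 and 0.174). Errors are standard errors. Members and lists were chosen with earlier results of these data known. Named are all members, genes of the lists that passed or had the 2 smallest p-values at X-ray 4h, and the 3 genes most like each member. Alternatives covered dye terms, arrays fitted, blocks, centring, weights, features, direction and leaving out each array.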

Additional observations from a re-analysis of the deposited data

Results flagged for a closer look

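In 6 of the 16 differences computed for the members, the exact permutation test over 4 against 4 arrays gave its smallest p of 0.0286 (two-sided), while 0 of them passed in limma over all genes. These p-values rest on the rule for turning replicates, found in the same values, and are described only. ACER2 differed by -0.80 for C12 minus X-ray at 1h, by 0.57 for 4h minus 1h after C12 and by 0.67 for 4h minus 1h after X-rays. TP53I3 differed by -0.73 for C12 minus X-ray at 4h and by 0.79 for 4h minus 1h after X-rays. TIGAR differed by 0.70 for 4h minus 1h after X-rays. Groups without overlap in the same direction were found in 0.447% of all genes for C12 minus X-ray at 1h and 0.785% at 4h. For 4h minus 1h they were found in 0.0327% after C12 and 0.693% after X-rays. With the dye taken out, the ACER2 groups at 1h and 4h after C12 overlapped.

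Sets of 4 arrays were taken for each member and group, as turned and with the dye coefficient of its quality taken out. Among these 32, 6 had 1 array far from the other 3 by Dixon's test. Its rate of about 1 in 20 holds for independent sets. Here the same values are counted on both scales and some sets part by dye, so 6 of 32 cannot be set against that rate. As turned, replicate 1 stood apart at X-ray 4h for ACER2 (1.03, the lowest) and for TP53I3 (1.01, the highest), and replicate 2 at X-ray 1h for SCO2 (-0.54). With the dye taken out, these were TIGAR at C12 1h (-0.095, replicate 2), SCO2 at C12 4h (-0.18, replicate 4) and SCO2 at X-ray 1h (0.83, replicate 3).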

How the results depend on the processing

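The count of members that rose 4h after X-rays, 3 of 4, was 1 without the dye term and 0 with array weights. With the ratios as deposited or turned by the labelled dye it was also 0. The weights were 0.513, 0.0837, 0.29 and 0.405 on X-ray 4h replicates 1 to 4. They ran from 0.226 to 1.89 on X-ray 1h arrays and from 2.23 to 3.67 on C12 arrays. The count was 2 (ACER2 and TIGAR) in the fit to the 8 X-ray arrays, where 41 genes passed against 104. It ran from 1 to 3 when single arrays were left out, and was 3 with centring, with the median of the features and with each feature on its own. At X-ray 1h the count of 0 became 1 (ACER2) with 1 dye coefficient per radiation quality, and ran from 0 to 1 without single arrays. In the other 6 comparisons it was 0 in every fit run. The 6 other p53-linked genes became 3 without the dye term and 0 with array weights, as deposited or by the labelled dye, and ran from 1 to 6 without single arrays. As deposited, the X-ray 4h values turned negative for TP53I3 (-0.0693), GPX1 (-0.30), ISCU (-0.0693), PRKAB1 (-0.0378) and RRAD (-0.0367). By the labelled dye they did for TP53I3 (-0.0611), GPX1 (-0.14), ISCU (-0.0451), PRKAB1 (-0.0095), RRAD (-0.16), S1PR4 (-0.12), SESN1 (-0.20) and SESN2 (-0.10). Against the turned ratios, the deposited ones reverse replicates 1 and 2, and the labelled dye reverses replicates 1 and 3 of the X-ray groups. Deviations of same-numbered arrays correlated from -0.312 to 0.227 between groups, and differently numbered arrays were not set beside them. The random replicate block had a consensus correlation of 0.131. With the replicate block, fixed or random, 3 members and 102 genes passed at X-ray 4h.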
